A study of Mus musculus with 93 samples.

Results

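Igfbp6, Ambp, Npl, Tgm1, Scgb3a1 and Ccdc146 are 6 of the genes with the largest rises in the blood leukocytes of mice with mammary tumors, and none of them is a usual marker of a blood cell type. They were chosen by the size of their rise in tumor arrays and found by gene symbol among 18193 genes, each gene being read by its brightest probe set on average over 93 arrays. Each of the 6 has 1 probe set. The comparison asked whether they rose on the same tumor arrays and with which leukocyte markers they varied.

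Total white blood cells came from the cheek blood of female FVB/NJ mice. Control arrays came from wild type, tumor-free females of like age and breeding history. Tumor arrays came from MMTV/c-MYC transgenic females with advanced mammary tumors, in which the MMTV long terminal repeat drives c-MYC or a more stable form of it, and repeated breeding raises that expression. Both kinds of mice were held in continuous breeding, and the labels do not tie an array to a form of c-MYC, a mouse or an age. The labels give 14 control and 32 tumor arrays in a training cohort and 14 control and 33 tumor arrays in a validation cohort. Tumor arrays were read here as 52 late-numbered arrays (training 6 to 32 and validation 9 to 33) and 13 early-numbered arrays (training 1 to 5 and validation 1 to 8), by the numbers in their labels. The labels do not say what those numbers stand for. They also do not say that each array is a separate mouse, so p-values measure the spread between arrays.

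The tumor arrays of these ranges differ technically. The dap spike-in, a bacterial transcript used as an added control, averaged 8.25 ± 0.755 (SD, n = 52) in late-numbered arrays, 3.09 ± 0.604 (SD, n = 13) in early-numbered arrays and 2.82 ± 0.435 (SD, n = 28) in control arrays on the log2 scale. The 5′ minus 3′ difference of the actin control, which falls as transcripts or their copies shorten, was −0.54 ± 0.282 in late-numbered, −1.42 ± 0.227 in early-numbered and −0.64 ± 0.103 in control arrays. These measures change with the array ranges, so their effect and any other difference between late-numbered, early-numbered and control arrays cannot be told apart. Of the 93 arrays, 6 had a median correlation with the other arrays under 0.95, and they were 2 late-numbered and 4 early-numbered tumor arrays.

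Outside the blood the 6 genes are known from other tissues. Igfbp6 encodes a secreted binding protein of insulin-like growth factors that prefers IGF-II. Ambp encodes the liver precursor of alpha-1-microglobulin, a lipocalin, and bikunin, a protease inhibitor. Npl encodes the lyase that breaks down free sialic acid. Tgm1 encodes the transglutaminase that cross-links the outer envelope of keratinocytes. Scgb3a1 encodes a small secretoglobin of airway and other epithelia, and Ccdc146 encodes a coiled-coil protein of centrosomes and the sperm tail. Neutrophils, against which they were set below, are short-lived granulocytes of the marrow and blood that carry antimicrobial granules, and granulocytes are known to accumulate in tumor-bearing mice. In bulk leukocyte RNA, more cells of a type and more transcript per cell cannot be told apart. The study counted leukocyte types in blood taken at death and reported like profiles in tumor-bearing mice and matched controls. It took the expression changes as likely not due to the proportions of cell types. The labels do not tie those counts to arrays.

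Igfbp6, Ambp and Npl followed one another most closely of all pairs, as given below, and the 250 bases before their RefSeq start sites are shown so that their upstream sequence can be compared. Capitals mark matches, on either strand, to the motifs named after the sequences.

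Igfbp6, GRCm38.p6, chr15:102143936-102144185, plus strand: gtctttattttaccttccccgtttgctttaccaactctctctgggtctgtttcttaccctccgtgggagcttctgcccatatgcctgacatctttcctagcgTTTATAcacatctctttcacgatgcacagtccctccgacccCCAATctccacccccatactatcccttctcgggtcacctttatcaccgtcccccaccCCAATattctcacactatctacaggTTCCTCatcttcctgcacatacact
Ambp, GRCm38.p6, chr4:63154173-63154422, minus strand: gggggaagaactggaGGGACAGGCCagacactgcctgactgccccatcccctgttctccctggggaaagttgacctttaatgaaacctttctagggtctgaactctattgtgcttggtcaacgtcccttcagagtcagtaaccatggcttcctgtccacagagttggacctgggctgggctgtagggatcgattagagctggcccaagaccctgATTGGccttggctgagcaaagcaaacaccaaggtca
Npl, GRCm38.p6, chr1:153549715-153549964, minus strand: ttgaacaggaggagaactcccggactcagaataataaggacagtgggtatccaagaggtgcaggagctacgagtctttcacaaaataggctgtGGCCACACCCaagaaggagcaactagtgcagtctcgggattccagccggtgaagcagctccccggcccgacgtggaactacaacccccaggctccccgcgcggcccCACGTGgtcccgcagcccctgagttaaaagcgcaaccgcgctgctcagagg

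The motifs searched were TTGCNNAA (C/EBP half-site), GAGGAA (PU.1 core), TTCNNNGAA (STAT), an NF-kappaB motif, an IRF motif, TGANTCA (AP-1), CACGTG (E-box), TATAAA and CCAAT, each on both strands. RefSeq windows from 250 bases before to 50 after the start matched 5 of the 6 genes, and the entry of Ccdc146 was missing. In positions from the start site, Igfbp6 held TATAAA at −148, CCAAT at −107 and −50 and GAGGAA at −25. Ambp held the NF-kappaB motif at −235 and CCAAT at −36. Npl held the NF-kappaB motif at −157 and CACGTG at −51. These matches did not overlap. No motif was present in all 5 genes. The NF-kappaB motif was in 4 of 5 (Ambp, Npl, Scgb3a1 and Tgm1) and in 50.8% of 32851 RefSeq windows, and CCAAT was in 3 of 5 (Ambp, Igfbp6 and Tgm1) and in 37.4% of all windows. GAGGAA was in Igfbp6 and Scgb3a1 (28.3% of all windows), TTCNNNGAA in Scgb3a1 and Tgm1 (8.30%), and TATAAA in Igfbp6 alone (13.6%). TTGCNNAA was in Tgm1 alone (10.8% of all windows), the IRF motif in Tgm1 alone (3.44%), CACGTG in Npl alone (7.15%) and TGANTCA in 0 of 5 (7.81%). A match of letters is a description of the sequence and not a site of binding.

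The rises that chose the 6 genes are given as a description. In limma fits within each cohort, the mean rise over both cohorts ranked Igfbp6 first, Ambp second and Npl at rank 3 of 881 genes that lay above the median level of all probe sets and were called higher in both cohorts. Ccdc146, Tgm1 and Scgb3a1 held ranks 6, 7 and 8, with mean rises of 1.56, 1.55 and 1.50 on the log2 scale. The genes at ranks 12 and 13, 2310001H17Rik and Cbr3, had mean rises of 1.36 and 1.35. Probe sets called higher made up 15.2% of those tested in the training cohort and 7.10% in the validation cohort, and all 6 genes had been selected on such calls. Igfbp6 rose by 2.27 in training and 2.06 in validation arrays, Ambp by 2.02 and 1.65, and Npl by 2.08 and 1.40. Tgm1 rose by 1.87 and 1.23, Scgb3a1 by 1.53 and 1.47, and Ccdc146 by 1.05 and 2.06. The limma interaction term compares the same rises that chose the genes. A call in both cohorts favours like rises, so for the 6 genes it is a description and no test. After adjustment 0.00% of all probe sets, and 0 of the 6 genes, differed between cohorts by this term. The rise of Ccdc146 was larger by 1.02 ± 0.49 (SE) in the validation cohort.

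Igfbp6 lay between 5.98 and 9.20 with a median of 7.22 in the 28 control arrays, on the log2 scale. In the 52 late-numbered tumor arrays the lowest was 6.25, the median 9.87 and the highest 12.4. In the 13 early-numbered arrays these were 3.74, 8.09 and 10.2. Most late-numbered arrays lay above the control range, and early-numbered arrays spread to both sides of it.

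Ambp ran from 4.26 to 7.76 in control arrays (median 5.79), from 3.71 to 10.6 in late-numbered arrays (median 7.94) and from 3.44 to 9.01 in early-numbered arrays (median 7.13). Npl ran from 4.29 to 9.48 (median 7.41), from 5.96 to 11.3 (median 9.31) and from 5.61 to 9.89 (median 8.18) in the same order. For both genes the groups overlapped, and the lowest early-numbered array, tumor training 1, was also the lowest of all early-numbered arrays for Igfbp6 and Tgm1.

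Tgm1 lay between 4.80 and 7.90 in control arrays, and its highest value there was a single array, control validation 11, which was also the highest control for Igfbp6, Ambp, Npl and Scgb3a1. In late-numbered arrays Tgm1 lay between 4.69 and 9.48 (median 7.35), and in early-numbered arrays between 4.76 and 7.22 (median 6.03), so no early-numbered array passed the highest control.

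Scgb3a1 was low in control arrays, between 2.83 and 4.91 (median 4.05). In late-numbered arrays it lay between 3.86 and 9.12 with a median of 4.84 against a mean of 5.54 ± 1.38 (SD, n = 52), so part of these arrays stayed near the controls while others lay far above them. Early-numbered arrays lay between 4.14 and 7.34 (median 5.41). Scgb3a1 was the only gene of the 6 with a higher median in early- than in late-numbered arrays.

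Ccdc146 had the largest SD of the 6 in control arrays (1.08, n = 28), where it lay between 2.16 and 5.83 (median 4.03). Its training controls averaged 4.41 ± 0.97 (SD, n = 14) and its validation controls 3.47 ± 1.00 (SD, n = 14). Late-numbered arrays lay between 2.39 and 7.24 (median 5.87), and early-numbered arrays between 3.08 and 6.10 (median 4.46).

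**Figure D1:**
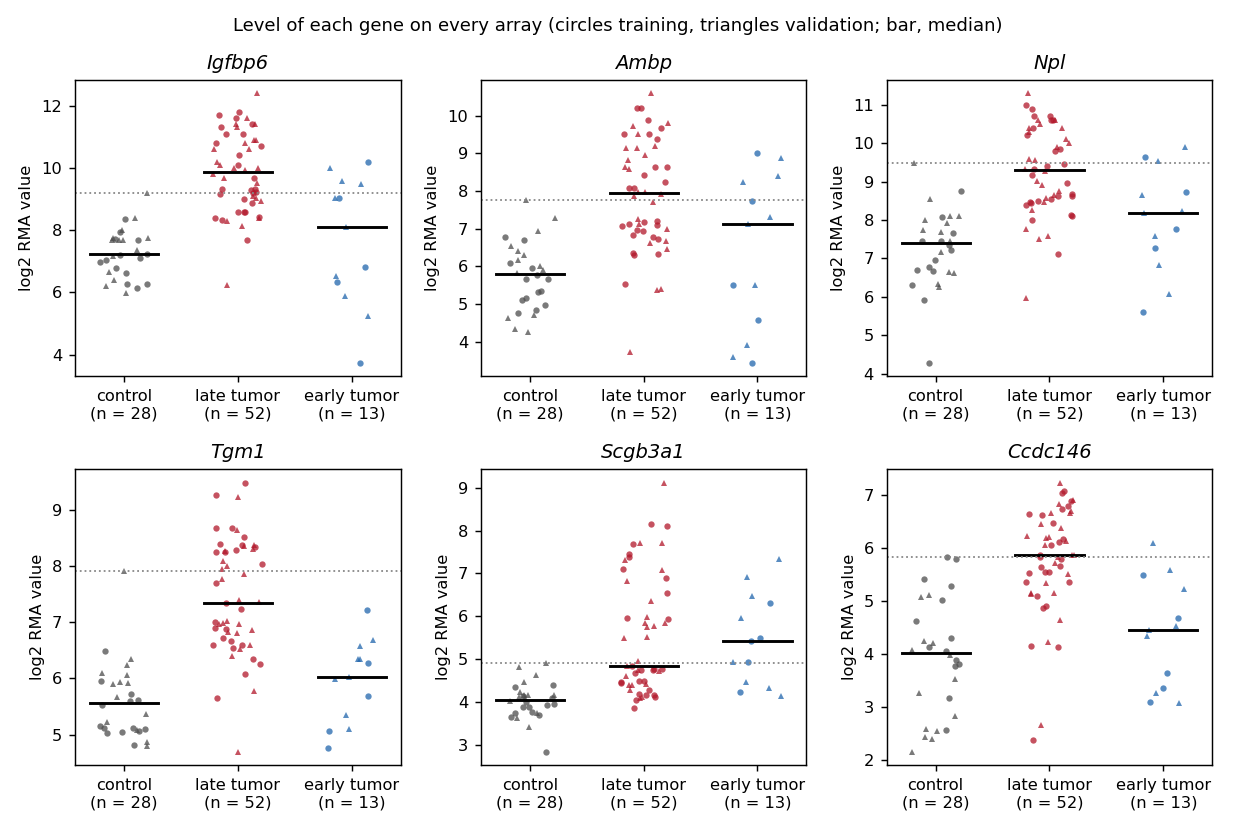
Log2 value of each gene on every array, in 28 control, 52 late-numbered tumor and 13 early-numbered tumor arrays. Circles are training and triangles validation arrays, bars are medians and the dotted line is the highest control array. Igfbp6 has medians of 7.22, 9.87 and 8.09, and Scgb3a1 medians of 4.05, 4.84 and 5.41 in this order.

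In the fit of the 3 sets with cohort as a covariate, the late-numbered arrays lay above control by 2.61 ± 0.29 (SE) for Igfbp6, 2.14 ± 0.32 for Ambp and 2.0 ± 0.26 for Npl on the log2 scale. Tgm1 was higher there by 1.84 ± 0.20, Ccdc146 by 1.83 ± 0.24 and Scgb3a1 by 1.52 ± 0.26. Early-numbered arrays, set against the same 28 controls, differed by 0.39 ± 0.42 for Igfbp6, 0.63 ± 0.47 for Ambp, 0.70 ± 0.37 for Npl, 0.35 ± 0.29 for Tgm1 and 0.46 ± 0.34 for Ccdc146. Scgb3a1 differed there by 1.40 ± 0.37. These differences overlap with the rule that chose the genes and carry no test.

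Late- and early-numbered tumor arrays were then compared with each other, a contrast the rule did not use, though the late-numbered arrays made up 52 of the 65 tumor arrays it used, so the choice favours genes high in them. By limma with Benjamini-Hochberg adjustment, 5 of the 6 genes were higher in late-numbered arrays, beside 27% of all probe sets called higher and 41.0% called lower. Igfbp6 was higher by 2.22 ± 0.39 (SE, adjusted p = 5.51e-07) and ranked 33 among 18193 genes by this difference. Tgm1 was higher by 1.50 ± 0.27 (adjusted p = 1.01e-06), Ambp by 1.51 ± 0.43 (adjusted p = 0.00147), Ccdc146 by 1.37 ± 0.31 (adjusted p = 7.63e-05) and Npl by 1.30 ± 0.34 (adjusted p = 0.000562). Scgb3a1 did not pass the test, at 0.13 ± 0.34 (adjusted p = 0.754). In validation arrays alone the difference of Ambp was 1.27 and missed the threshold (adjusted p = 0.0671).

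The tumor arrays above the highest of the 28 control arrays were then counted for each gene. Igfbp6 was above it on 34 of 52 late-numbered and 4 of 13 early-numbered arrays, Ambp on 28 and 4, and Npl on 22 and 3. Tgm1 was above it on 21 late-numbered and 0 early-numbered arrays, and Ccdc146 on 28 and 1. Scgb3a1 differed from the rest with 25 of 52 late-numbered and 9 of 13 early-numbered arrays. Over all 18193 genes the median count was 5 of 65 tumor arrays, and between 4.24% (Igfbp6) and 12.6% (Tgm1) of genes had as many as a member did, a description of genes that were chosen for their rise.

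The arrays concerned were largely shared. Igfbp6 alone was above the highest control on 38 of 65 tumor arrays, so much overlap with it is likely for any gene. The same overlap over other genes was not computed. All 32 arrays above the highest control for Ambp were among the 38 for Igfbp6 (100% of the first and 84.2% of the second), as were all 25 for Npl (100% and 65.8%), and those 25 were also among the 32 for Ambp. Of the 21 arrays for Tgm1, 20 were among those for Igfbp6 (95.2% and 52.6%). Scgb3a1 shared 29 of its 34 arrays with Igfbp6 (85.3% and 76.3%), and Ccdc146 25 of its 29 (86.2% and 65.8%). On single arrays the counts fell toward the ends. Of 52 late-numbered arrays, 17 had all 6 genes above the highest control and 13 had 0, and of 13 early-numbered arrays 4 had 4 genes above it, 5 had 1 and 4 had 0. In those 5 early-numbered arrays the single gene was Scgb3a1.

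These arrays also differed in the neutrophil list, the mean per array of 19 measured neutrophil markers (such as Cxcr2, Csf3r, Mmp9 and Ltf) after centring each gene on all arrays. The 17 late-numbered arrays with all 6 genes above the highest control had neutrophil list means between 0.47 and 1.28, and the 13 with 0 genes above it between −0.84 and 0.32, with no overlap. The 4 early-numbered arrays with 4 genes above it were the 4 with the highest neutrophil list means of that set (0.17 to 1.01), and the other 9 lay between −1.62 and −0.16. The highest Igfbp6, Ambp, Npl, Scgb3a1 and Ccdc146 value of all arrays was that of a single array, tumor validation 33, of which the neutrophil list mean of 1.28 ranked 51 of 52 from the lowest.

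**Figure D2:**
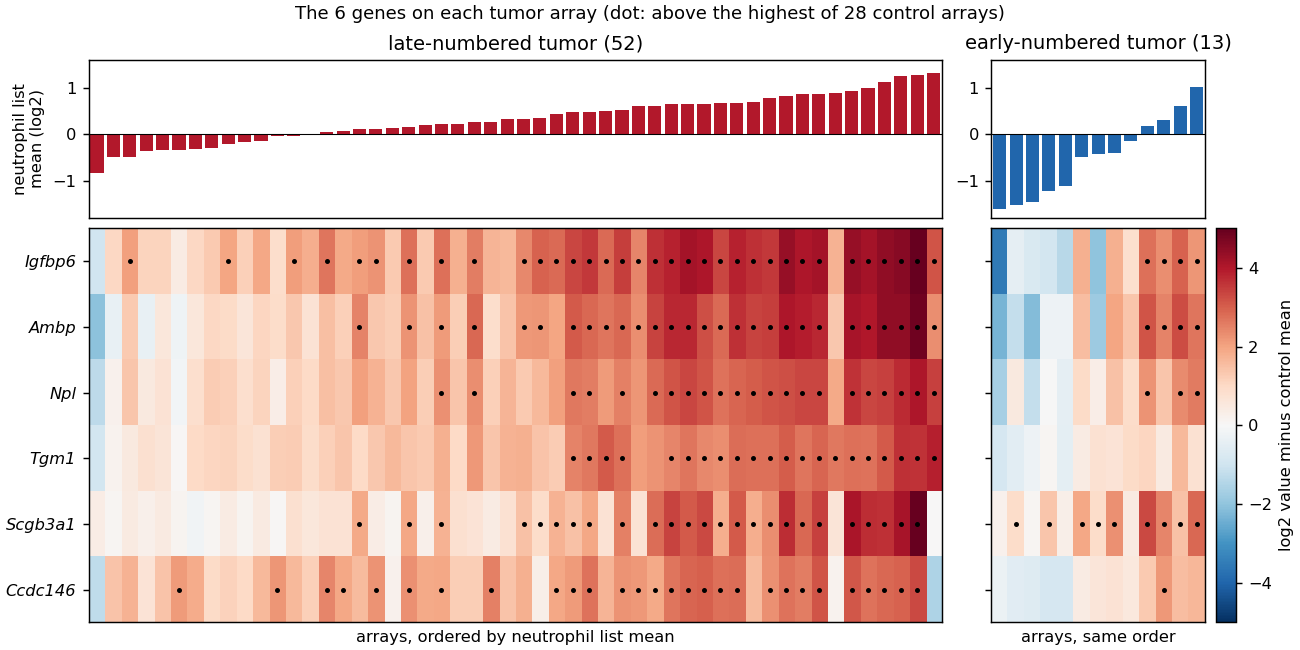
The 6 genes on 52 late-numbered (left) and 13 early-numbered (right) tumor arrays, ordered by the mean of 19 neutrophil markers (upper bars, centred log2). Colour is the log2 value minus the mean of 28 control arrays and a dot marks a value above the highest control. Dots gather at the right of both panels, and 17 late-numbered arrays carry all 6.

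Co-variation was measured within each set of arrays, so that differences between the sets add nothing to it. In the 52 late-numbered arrays 15 of 15 pairs of the 6 genes correlated positively past the threshold (Pearson r from 0.403 to 0.965, median 0.867, permutation p adjusted over 45 relations). The closest were Igfbp6 with Ambp (r = 0.965, Spearman rho = 0.959), Ambp with Npl (r = 0.965, rho = 0.961) and Igfbp6 with Npl (r = 0.961, rho = 0.945). All 3 had a permutation p of 1e-05, the smallest that 100000 resamples can give, and an adjusted p of 2.14e-05. Without the 2 arrays farthest from the median of the x gene their r was 0.955, 0.955 and 0.95, and within cohorts it lay between 0.952 and 0.979. Over 10604 genes above the median level, Ambp was the gene most like Igfbp6 and Npl held rank 3.

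Tgm1 followed Npl (r = 0.921), Ambp (0.887) and Igfbp6 (0.869), and Scgb3a1 followed Igfbp6 (0.877), Ambp (0.867) and Npl (0.822). Ccdc146 was the loosest of the 6, with r of 0.672 to Scgb3a1, 0.633 to Igfbp6, 0.632 to Ambp, 0.536 to Npl and 0.403 to Tgm1 (adjusted p = 0.00418). The last of these was 0.743 in the 25 validation arrays and 0.132 in the 27 training arrays. It moved with single arrays in both directions. Without tumor training 15 the r of Tgm1 with Ccdc146 rose to 0.638, and to 0.522 within the training cohort. Without tumor validation 19 it fell to 0.284. Its rho over all late-numbered arrays was 0.543.

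The same 3 pairs led in the 13 early-numbered arrays, where 14 of 15 pairs passed the threshold and all were positive. Igfbp6 with Ambp gave r = 0.941 (rho = 0.933), Ambp with Npl 0.911 (rho = 0.934) and Igfbp6 with Npl 0.903 (rho = 0.902). Tgm1 with Scgb3a1 missed the threshold at r = 0.563 (adjusted p = 0.0503). Ccdc146 here had r between 0.733 (Scgb3a1) and 0.812 (Npl) with the other genes.

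In the 28 control arrays 11 of 15 pairs passed, 10 of them positive. Igfbp6, Ambp, Npl and Tgm1 varied together there too, with r between 0.787 (Igfbp6 with Tgm1) and 0.886 (Igfbp6 with Ambp). Scgb3a1 followed them less tightly, with r between 0.381 (Ambp) and 0.607 (Tgm1). Its relation with Npl, r = 0.575, fell to 0.186 without the 2 arrays farthest from the median of Npl, so the size of that r rests on them. By rank over all control arrays it passed, with rho = 0.409 (adjusted permutation p = 0.0361). Without control validation 11 the r of Scgb3a1 was 0.287 with Igfbp6 and 0.245 with Ambp. Without control validation 13 these were 0.616 and 0.567. Ccdc146 did not rise with any of the other 5 in control arrays. The r of Ccdc146 was −0.05 with Igfbp6, −0.26 with Ambp, −0.25 with Npl and −0.19 with Scgb3a1, all short of the threshold, and −0.41 with Tgm1 (adjusted p = 0.0336), which was 0.01 in training and −0.50 in validation controls. In training controls alone its r with the other genes lay between −0.09 (Ambp) and 0.16 (Igfbp6). Ccdc146 and Scgb3a1 averaged 3.94 and 4.03 in control arrays, below the median level of all probe sets (4.79), so these relations were read at low signal.

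**Figure D3:**
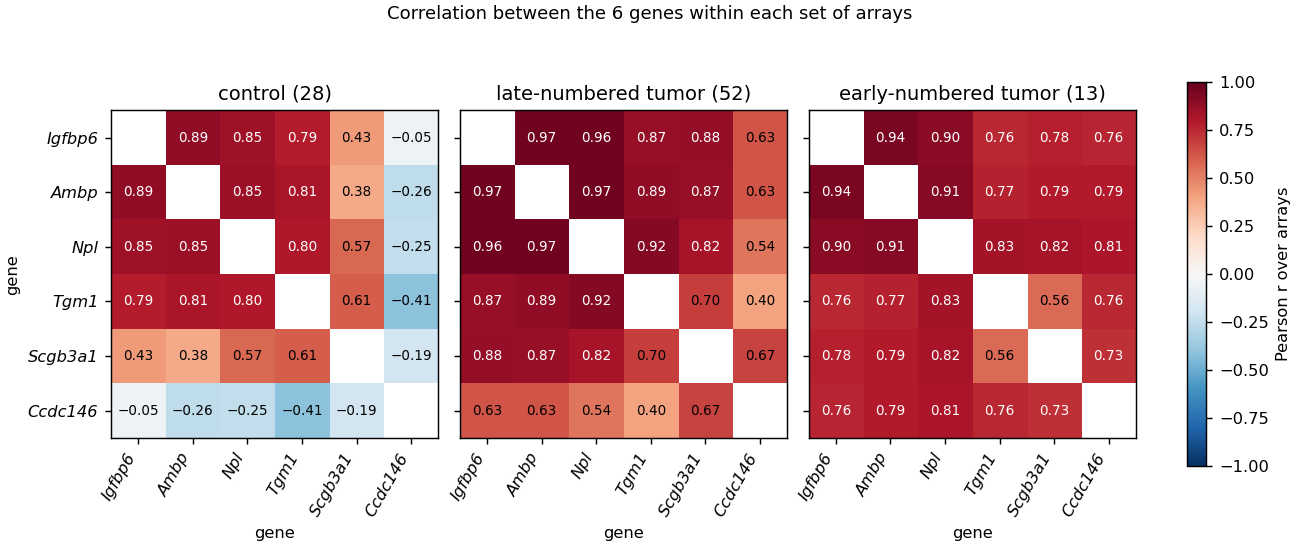
Pearson r of each pair of the 6 genes over 28 control, 52 late-numbered and 13 early-numbered tumor arrays (colour and number, same axes in each panel). Igfbp6, Ambp and Npl lie between 0.85 and 0.97 in all 3 panels. Ccdc146 is positive with the other genes in both tumor panels. In control arrays, where its level is low, its r is negative but past the threshold with Tgm1 alone.

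Each gene was then set against the mean of 21 marker lists, 14 of blood cells or their states and 7 of other tissues. Over late-numbered arrays 53 of 126 relations passed the threshold after adjustment over all 378, in control arrays 39 and in early-numbered arrays 23. The neutrophil list had the highest r of the 21 for 5 of the 6 genes in late-numbered arrays. Tgm1 reached r = 0.946 (rho = 0.939), Npl 0.918, Ambp 0.883, Igfbp6 0.867 and Scgb3a1 0.747, all positive in both cohorts. Among single neutrophil markers, 17 of 19 had r of at least 0.6 to Igfbp6, Ambp, Npl and Tgm1, beside 9.98% to 10.8% of all genes above the median level. Scgb3a1 reached it with 11 of 19 (7.77% of all genes) and Ccdc146 with 2 of 19 (4.41%).

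Examples of single markers over late-numbered arrays were Mmp9, the gelatinase of neutrophil granules, with r = 0.907 to Tgm1 and 0.868 to Npl. Itgam, the alpha chain of the Mac-1 integrin, had r = 0.846 to Igfbp6 and 0.843 to Ambp. S100a9, among the brightest transcripts of these arrays with a mean level of 14.2, went the other way, at −0.28 with Ambp and −0.36 with Tgm1.

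In control arrays the neutrophil list followed Npl (r = 0.866), Ambp (0.815), Tgm1 (0.761) and Igfbp6 (0.718), so 4 of the genes varied with it in tumor-free mice too. Other lists did so there as well. Igfbp6 had r = 0.662 with the eosinophil, basophil and mast cell list (0.687 in training, 0.688 in validation controls). Its r with the macrophage list was 0.614. Ambp had r = 0.692 with the immature granulocyte list and 0.604 with the macrophage list, all past the threshold. Few single genes of these lists did so. An r of at least 0.6 to Igfbp6 was reached by 1 of 12 eosinophil, basophil and mast cell genes and 2 of 13 macrophage genes. Of the neutrophil markers 12 of 19 reached it. For Ambp it was 2 of 8 immature granulocyte and 3 of 13 macrophage genes, beside 14 of 19 neutrophil markers. With the neutrophil list Scgb3a1 (r = 0.367, adjusted p = 0.141) and Ccdc146 (r = −0.25, adjusted p = 0.367) did not pass in control arrays. In early-numbered arrays all 6 passed, with r from 0.719 (Scgb3a1) to 0.921 (Ccdc146). The neutrophil list itself averaged −0.40 ± 0.45 (SD, n = 28) in control, 0.34 ± 0.50 (SD, n = 52) in late-numbered and −0.49 ± 0.86 (SD, n = 13) in early-numbered arrays. Early-numbered arrays therefore spread widely around the control level. Of its 19 measured genes 16 were called higher in late-numbered arrays than in control arrays and 0 lower, with a median difference of 0.74 beside 0.04 over all genes. In early-numbered arrays 3 were higher and 4 lower than in control arrays, with a median of −0.07 beside 0.07 over all genes. Of all probe sets, limma called 23.9% higher and 19.9% lower in the first of these comparisons and 37.9% higher and 24.6% lower in the second.

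Ccdc146 parted from the neutrophil list on 1 array above all. Tumor training 15 had the highest neutrophil list mean of the late-numbered arrays (1.33) and the highest Tgm1 value of all arrays (9.48), with Npl at 10.7, yet the lowest Ccdc146 value of all tumor arrays (2.39) and a Scgb3a1 value of 4.05. The r of Ccdc146 with the neutrophil list over late-numbered arrays was 0.407 (adjusted p = 0.0127, rho = 0.562), 0.638 without this array and 0.309 without tumor validation 19. In training arrays alone it was 0.161, and 0.551 without this array. In validation arrays alone it was 0.733.

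**Figure D4:**
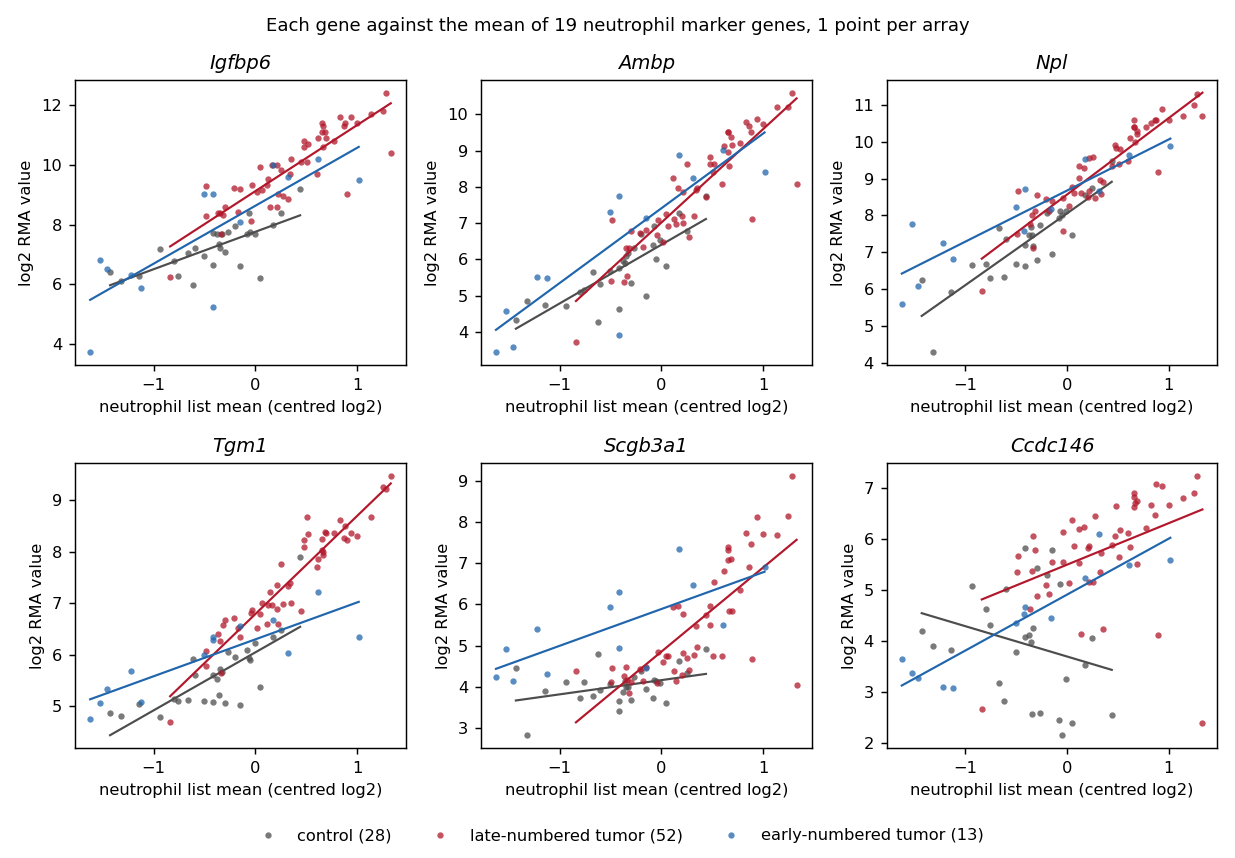
Log2 value of each gene against the mean of 19 neutrophil markers per array (centred log2), with a least-squares line for 28 control (grey), 52 late-numbered (red) and 13 early-numbered (blue) tumor arrays. Lines rise in all 3 sets for 5 genes, while that of Ccdc146 falls in control arrays. The single late-numbered array at the lower right of the Ccdc146 panel is tumor training 15, at 2.39.

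The slope on the neutrophil list differed between genes and sets, in log2 units of the gene per log2 unit of the list. Scgb3a1 had 0.35 ± 0.17 (SE) in control and 2.04 ± 0.26 in late-numbered arrays, and Tgm1 1.13 ± 0.19 and 1.91 ± 0.09. Npl had nearly the same slope in both, 1.95 ± 0.22 and 2.08 ± 0.13. With the neutrophil list mean as a covariate in the limma fit, an analysis added after the values were seen, the late-numbered minus control difference was 1.19 ± 0.20 for Igfbp6 in place of 2.61 and 0.48 ± 0.20 for Ambp in place of 2.14. For Npl it was 0.64 ± 0.14 in place of 2.0, for Tgm1 0.82 ± 0.13 in place of 1.84, for Scgb3a1 0.55 ± 0.23 in place of 1.52 and for Ccdc146 1.35 ± 0.26 in place of 1.83. That fit used a single slope shared by control, late- and early-numbered arrays, although the slopes within sets differed. For Ccdc146 they were −0.59 ± 0.46 in control, 0.81 ± 0.26 in late- and 1.10 ± 0.14 in early-numbered arrays. The adjusted differences therefore hold only under a common slope. All 6 late-numbered minus control differences were smaller with the covariate and none changed sign. The early-numbered minus control differences were all larger with the covariate, at 0.59 for Igfbp6 in place of 0.39, 0.86 for Ambp in place of 0.63 and 0.89 for Npl in place of 0.70. For Tgm1 it was 0.49 in place of 0.35, for Scgb3a1 1.53 in place of 1.40 and for Ccdc146 0.53 in place of 0.46.

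The same covariate changed the late- minus early-numbered contrast more. Igfbp6 remained higher by 0.60 ± 0.26 (limma adjusted p = 0.0361) and Ccdc146 by 0.82 ± 0.33 (adjusted p = 0.0256), while 25.8% of all probe sets were called higher and 38.5% lower in that fit. Tgm1 was at 0.33 ± 0.17 (adjusted p = 0.0693), Ambp at −0.38 ± 0.25 (adjusted p = 0.182) and Npl at −0.25 ± 0.18 (adjusted p = 0.216), none past the threshold. The difference of Scgb3a1 was −0.99 ± 0.30, lower in late-numbered arrays under that common slope (adjusted p = 0.00282). Its own slopes were 2.04 ± 0.26 in late- and 0.89 ± 0.26 in early-numbered arrays.

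The genes also shared variation that the neutrophil list did not carry. Given the list mean, 12 of 15 pairs stayed past the threshold in late-numbered arrays, with partial r of 0.854 for Igfbp6 with Ambp, 0.838 for Igfbp6 with Npl and 0.830 for Ambp with Npl. Scgb3a1 kept a partial r of 0.692 with Igfbp6 and Ccdc146 one of 0.636 with Ambp. Tgm1 lost 3 of its 5 relations, with a partial r of 0.303 to Igfbp6 (adjusted p = 0.0549), 0.0610 to Ccdc146 and −0.05 to Scgb3a1. In early-numbered arrays 3 of 15 pairs and in control arrays 8 of 15 stayed past the threshold.

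Other blood lists followed in a like order. The immature granulocyte list, with 8 measured genes such as Elane and Mpo, had r between 0.603 (Scgb3a1) and 0.794 (Tgm1) for 5 genes in late-numbered arrays. Ccdc146 did not pass with it there by Pearson r (0.151), but did by Spearman rho (0.405, adjusted permutation p = 0.0149), and its r was 0.430 without the 2 farthest arrays. By Pearson r the list closest to Ccdc146 was the monocyte list (0.604), at 0.447 in training and 0.766 in validation arrays. The order of the monocyte and neutrophil lists turned by rank, with rho of 0.365 and 0.562, and without the 2 farthest arrays, with r of 0.414 and 0.576. Lymphocyte lists ran the other way in late-numbered arrays. The NK cell list had r between −0.82 (Tgm1) and −0.53 (Scgb3a1) and the T cell list between −0.63 (Tgm1) and −0.47 (Scgb3a1) for 5 genes. Ccdc146 passed with neither by Pearson r, at −0.26 with the NK cell list and −0.33 with the T cell list (adjusted permutation p = 0.0502), but with both by Spearman rho (−0.43 and −0.41). The B cell list was negative with 5 genes in early-numbered arrays, to −0.85 for Npl. In late-numbered arrays its r with Npl was −0.38, at −0.72 in training and −0.12 in validation arrays, so that relation did not hold within the validation cohort. The eosinophil, basophil and mast cell list had r of 0.357 to 0.475 with 4 genes over late-numbered arrays, which fell to between 0.0426 and 0.208 without the 2 farthest arrays and did not hold within the training cohort (−0.12 to 0.128). All 6 genes correlated negatively with the proliferation list in late-numbered arrays (r from −0.59 for Ccdc146 to −0.44 for Scgb3a1).

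**Figure D5:**
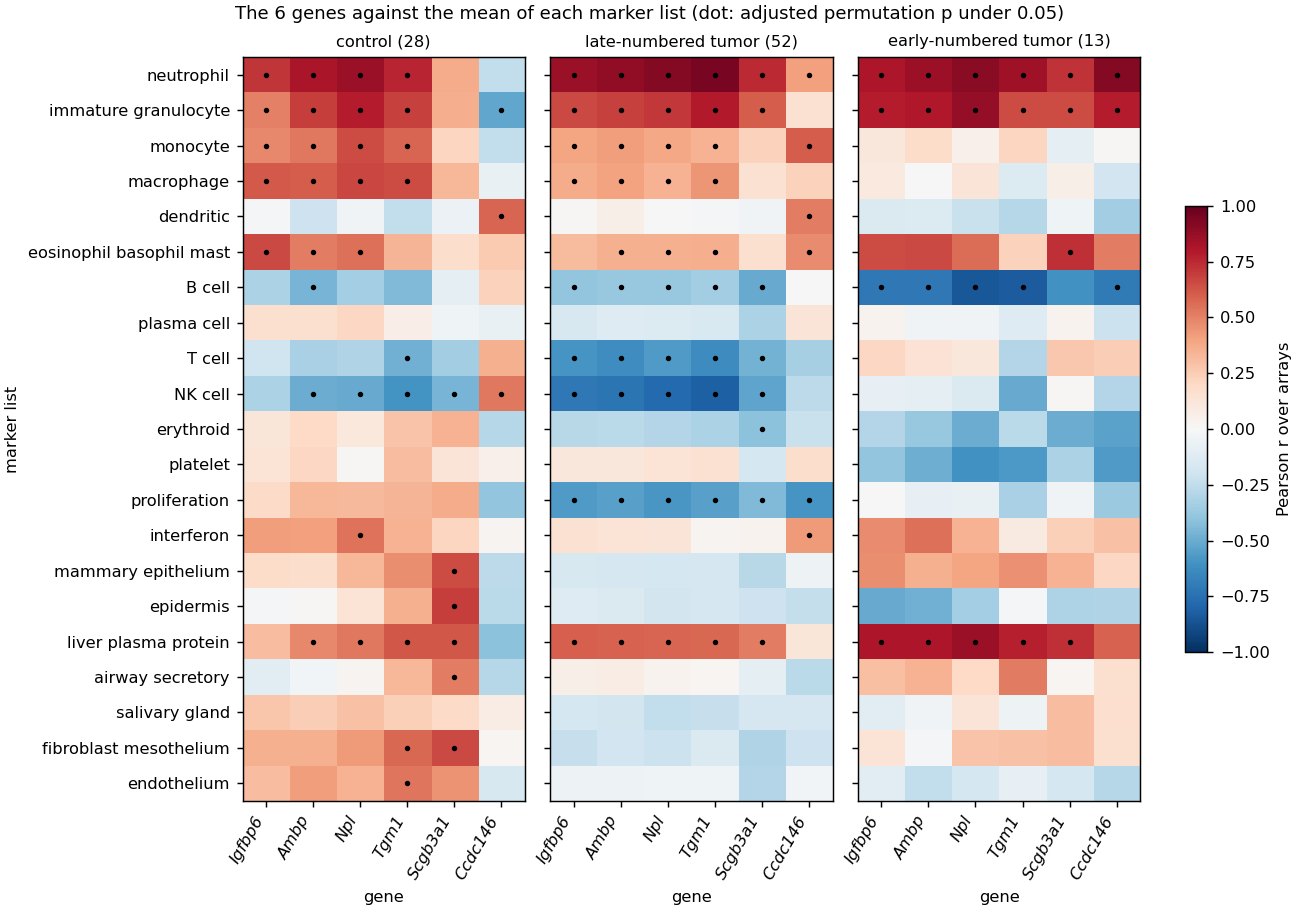
Pearson r of each gene with the mean of 21 marker lists in 28 control, 52 late-numbered and 13 early-numbered tumor arrays. Colour gives r and a dot an adjusted permutation p under 0.05. The neutrophil row is red for 5 genes in all 3 panels, up to 0.946 for Tgm1, and the NK cell row is blue in late-numbered arrays, down to −0.82.

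Markers of airway, epidermis, mammary epithelium and salivary gland were low. Of the airway list 0 of 9 measured genes lay above the median level of all probe sets (4.79 on the log2 scale), of the epidermis list 2 of 13, of the mammary epithelium list 2 of 13 and of the salivary gland list 1 of 8. The array means of the airway list ran from 2.83 to 3.74 in control, 2.83 to 3.57 in late-numbered and 3.11 to 3.74 in early-numbered arrays. Those of the epidermis list ran from 3.34 to 3.84, 3.28 to 4.17 and 3.58 to 4.14, and of the mammary list from 3.25 to 4.03, 3.42 to 4.92 and 3.39 to 4.37. None of the 6 genes correlated past the threshold with any of these 4 lists in late- or early-numbered arrays. In control arrays Scgb3a1 did, with the epidermis (r = 0.691), mammary (0.656) and airway (0.512) lists, whose r was 0.323, 0.484 and 0.081 in the 14 training controls and 0.846, 0.738 and 0.595 in the 14 validation controls.

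The liver list differed from the airway, epidermis, mammary and salivary gland lists, with r between 0.513 (Scgb3a1) and 0.596 (Igfbp6) for 5 genes in late-numbered arrays. Of its 14 measured genes 3 lay above the median level. Alb, the most abundant liver transcript, averaged 4.21, 4.13 and 4.81 in control, late- and early-numbered arrays. Its r with Ambp was −0.16 in late-numbered arrays. Hp, haptoglobin, which granulocytes also make, had r = 0.872 with Ambp there and a mean level of 12.7, and Orm1, an acute-phase lipocalin, had r = 0.619. The array means of the list ran from 4.04 to 4.75 in control, 4.12 to 5.06 in late-numbered and 4.13 to 4.91 in early-numbered arrays.

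Of 30 relations with the actin and GAPDH 5′ minus 3′ differences, the 18S control, dap and the array median, 0 passed in late-numbered and 0 in early-numbered arrays. With actin the r lay between −0.03 (Ambp) and 0.0964 (Igfbp6) in late-numbered arrays. In the 13 early-numbered arrays some values were large without passing. The r with the 18S control was −0.72 for Ambp (adjusted p = 0.0999, −0.91 in the 8 validation arrays), −0.70 for Ccdc146, −0.66 for Npl and −0.63 for Igfbp6. The r of Ccdc146 with actin was −0.60 there, and that of Tgm1 with the array median −0.65. With dap the r over late-numbered arrays ran from −0.38 (Scgb3a1) to −0.13 (Ccdc146), but within the training cohort it was −0.58 for Igfbp6 and Ambp, −0.63 for Npl, −0.56 for Tgm1 and Scgb3a1 and −0.23 for Ccdc146. Within the validation cohort it lay between −0.25 (Scgb3a1) and −0.00119 (Ambp). In control arrays dap fell with Igfbp6 (r = −0.61) and Npl (r = −0.62, both adjusted p = 0.0221), at levels near the background of that probe set. With the actin measure held constant, 2 of the relations of the 6 genes with each other and with the lists lost the threshold. The part of the other measures in the relations was not tested.

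Over 6 family lists, 21 of 89 measured genes were higher and 6 lower in tumor than in control arrays by limma (23.6% and 6.74%), beside 22.7% and 19.6% of the 18193 genes and 23.4% and 18.2% of all probe sets. The share called higher was thus near that of all genes. Among genes above the median level tested alone, 11 were higher and 7 lower. The share over all such genes was not computed, so these counts are not read further.

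Of the IGF system around Igfbp6, 2 of 18 measured genes were higher and 1 lower. Irs2, an adaptor of insulin and IGF receptors, was higher by 0.41 ± 0.14 (SE, adjusted p = 0.0135). Igf2r, which clears IGF-II, was lower by 0.21 ± 0.09 (difference −0.21, adjusted p = 0.0497). Igf1r, the signalling receptor, did not pass (0.23 ± 0.12, adjusted p = 0.102), and had r = 0.729 with Igfbp6 in late-numbered and 0.01 in control arrays.

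Of the lipocalins and inter-alpha-inhibitor chains related to Ambp, 5 of 17 were higher and 0 lower. Itih4 was higher by 0.58 ± 0.17 (adjusted p = 0.00324), and Tnfaip6, which moves heavy chains of the inhibitor to hyaluronan, by 0.46 ± 0.13 (adjusted p = 0.00355). Lcn2, a neutrophil granule lipocalin, had r = 0.741 with Ambp in late-numbered and 0.843 in control arrays.

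Of the sialic acid genes around Npl, 5 of 17 were higher and 3 lower. Amdhd2 and Gnpda1, which act on amino sugars at later steps than Npl, were higher by 0.68 ± 0.10 (adjusted p = 1.76e-08) and 0.52 ± 0.10 (adjusted p = 5.23e-06). Slc35a1, the Golgi carrier of activated sialic acid, was lower (−1.02 ± 0.09). Gnpda1 had r = 0.764 with Npl in late-numbered and 0.758 in control arrays.

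Of the transglutaminases and cornified envelope genes around Tgm1, 3 of 14 were higher and 0 lower. They were Tgm4 (0.58 ± 0.12, adjusted p = 5.05e-05), Tgm3 (0.36 ± 0.11) and Tgm5 (0.21 ± 0.08), all transglutaminases. Of the secretoglobin list 3 of 6 were higher and 0 lower, by at most 0.35 ± 0.14 (Marco, a scavenger receptor placed there for its link to Scgb3a2), and 0 of 6 lay above the median level. Of the axoneme list set beside Ccdc146, 3 of 17 were higher and 2 lower. Rfx3 (−0.63 ± 0.10) and Ccdc39 (−0.64 ± 0.11) were lower and Rsph1, of the radial spoke, was higher (0.52 ± 0.12, adjusted p = 0.000306).

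The genes most like the 6 over late-numbered arrays, among 10604 genes above the median level, were in part the same for Igfbp6, Ambp and Npl. Each of these 3 had the other 2 and Cbr3 among its 4 closest. Entpd3, an ectonucleotidase, had r = 0.964 with Igfbp6 (0.531 in control and 0.898 in early-numbered arrays). Cbr3, a carbonyl reductase, had r = 0.964 with Npl (0.836 and 0.948), and Steap4, a metalloreductase, 0.962 (0.883 and 0.948). Tgm1 shared none of its 4 closest genes with the other 5 and was most like Chil1 (0.947), a chitinase-like protein of neutrophils, then Klf5 (0.942), Mcam (0.941) and Dgat2 (0.938).

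Scgb3a1 was most like Igfbp6 (0.877) and then Oat (0.876), which had r = −0.16 in control arrays. Ccdc146 had a different set of like genes, Oscp1 (0.905), Il1bos (0.902), Clec4n (0.884), which encodes the fungal receptor dectin-2, and Vsig10 (0.871). These 4 also varied with Ccdc146 in control arrays, with r of 0.767, 0.705, 0.623 and 0.592. Il1bos lies antisense to Il1b, and the sources used here do not settle which strand its probe set reads.

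At the other end, Camsap1, a microtubule end-binding protein, had the lowest r with Igfbp6 (−0.86) and Npl (−0.81), and Mphosph9 with Ambp (−0.84) and Scgb3a1 (−0.77). Cd7, a lymphocyte surface antigen, had the lowest with Tgm1 (−0.80). Klhl6, known from B cells, had the lowest with Ccdc146 (−0.71), but 0.511 in control arrays.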

How the data were processed

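Total leukocyte RNA was isolated, per the labels, with a column kit at once or after frozen storage, amplified and hybridized to Affymetrix whole-genome mouse arrays. The deposited log2 values were made by the authors with RMA (version not named). By the study's methods the data were also standardized with components taken from control probes, but it is unclear if this was done before deposit. There were 45101 probe sets, including 64 controls, on 93 arrays with at most 3 significant digits, so that values move in steps of 0.1 from 10 on. Arrays hold no counts, so their number limits the precision.

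Probe sets were named from GEO's platform annotation, and 34945 had 1 symbol. Log2 values were fitted with limma 3.58.1 in R 4.3.3 (lmFit, eBayes with an intensity trend, Benjamini-Hochberg over 45037 probe sets, threshold 0.05). Cohort was a covariate where both cohorts entered, but not where late- or early-numbered arrays were set against controls of a single cohort. In the replicate block fit the block took its place. Correlations used numpy 2.4.6 with 100000 two-sided permutations, adjusted over 45 pairs, 378 relations with marker lists and 90 with technical measures. Cohort values needed 6 arrays, so none is given for the 5 early-numbered training arrays. The limma and correlation steps were tested on simulated data.

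The 6 genes, marker lists, motifs and tests were chosen with earlier results of these data known. Besides the 6 genes, those named were the 4 most and 2 least alike over late-numbered arrays, up to 4 per list by smallest p and up to 4 by r, and ranks 1 to 13 of the mean rise. A neutrophil covariate, partial correlations given the neutrophil list, single-cohort fits of the 3 sets and correlations without outlying arrays were added after seeing the data. Sequences came from RefSeq tables of GRCm38.p6. Protein sequences were not used here.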

Additional observations from a re-analysis of the deposited data

Results flagged for a closer look

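In 5 of the 6 genes the tumor effect differed between late- and early-numbered tumor arrays, by the limma contrast of these sets. Such calls were common, with 27% of all probe sets called higher and 41.0% called lower in the same contrast. Most of the tumor arrays that chose the genes were late-numbered, so the choice favours genes high in them. The late-numbered arrays were higher by 2.22 for Igfbp6, 1.51 for Ambp, 1.50 for Tgm1, 1.37 for Ccdc146 and 1.30 for Npl on the log2 scale. The sets differ in the dap spike-in and in the actin 5′ minus 3′ measure as well, and the part of these in the difference was not tested beyond the actin covariate given next. Groups here hold more than 10 arrays, so single outlying values were not tested.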

How the results depend on the processing

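The rise of each of the 6 genes over control kept its sign with array weights, no intensity trend, brighter probe sets alone, median-centred arrays and the actin covariate, in all arrays, late-numbered arrays and early-numbered arrays. No sign changed with late-numbered arrays set against training controls alone and early-numbered arrays against validation controls alone. Both sets hold arrays of the other cohort too, so cohort is mixed into those differences. The late- minus early-numbered difference missed the threshold for Ambp in validation arrays alone (1.27). With the neutrophil covariate it missed it for Tgm1 (0.33), turned negative for Ambp (−0.38) and Npl (−0.25), and was −0.99 for Scgb3a1. That covariate moved the late-numbered minus control difference by more than the spread of the arrays for Igfbp6 (1.19), Ambp (0.48), Npl (0.64) and Tgm1 (0.82). In training arrays alone the early-numbered minus control difference of Ccdc146 was −0.35, over 5 tumor arrays. Given the neutrophil list, 3 early pairs passed in place of 14, and the partial r turned negative for Tgm1 with Scgb3a1 in late-numbered arrays (−0.053) and for Ccdc146 with Ambp (−0.0087), Npl (−0.098) and Tgm1 (−0.13) in early-numbered arrays. Above the control mean plus 3 SD lay 13 tumor arrays in place of 25 for Npl and 1 in place of 29 for Ccdc146. Among brighter probe sets 11 family genes were higher in place of 21, with no share over all brighter probe sets to set beside it. The cause of these changes was not tested.

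Of the single relations past the threshold, Spearman's rho lost 29, cohort centring 11, median centring 10, the actin measure 2, the neutrophil list 17 (4 of them with a change of sign) and leaving out the outlying arrays 22. Numbers 1 to 14 are shared by the groups, and the labels do not say that they pair arrays. The correlation of same-numbered deviations lay between −0.46 and 0.378 (median −0.03) and exceeded 0.1 in 11 of 28 pairs. Differently numbered arrays were not compared, so these values cannot tell if the numbers pair arrays. With the number as a replicate block over those arrays the tumor minus control difference was 1.69 for Igfbp6, 1.55 for Ambp, 1.50 for Npl, 1.25 for Tgm1, 1.58 for Scgb3a1 and 1.13 for Ccdc146, with no change of sign. The mean of several probe sets could not be run, since each gene has 1.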
